A study of Sus scrofa with 4 samples.

Results

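Aminoacyl-tRNA synthetases, the enzymes that attach each amino acid to its transfer RNA, were followed with their scaffold proteins through a ZBTB16 knockdown in cultured pig testis cells. The genes were chosen by symbol from the deposited tables: 39 of 26921 listed genes. They comprise 20 cytosolic synthetase genes, 16 mitochondrial synthetase genes whose symbols end in 2, and 3 scaffold proteins (AIMP1, AIMP2 and EEF1E1). AIMP2 ends in 2 but acts in the cytosol, so it was counted with the scaffold proteins. All 39 genes passed the filter on low counts.

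The RNA came from testis cells labelled as pig immature spermatogonia. In the 2 ZBTB16 knockdown libraries (genotype ZBTB16 knockdown) ZBTB16 was to be silenced, by the series' design, with lentiviral shRNA. The 2 control libraries are labelled WT, and the labels do not say whether those cells received a vector, so an effect of the virus and of the knockdown cannot be told apart. The labels give no age, sex, culture time or time after transduction for either group, and they name 2 independent experiments.

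A synthetase recognises 1 amino acid and its transfer RNAs, joins them at the cost of ATP, and the charged transfer RNA is then carried to the ribosome by an elongation factor. Animal cells keep separate nuclear genes for the cytosolic enzymes and for most of the mitochondrial enzymes, which are imported to serve the ribosomes of the mitochondrion. In mammalian cells several cytosolic synthetases sit together in a multisynthetase complex held by AIMP1, AIMP2 and EEF1E1, and many cytosolic synthetase genes are targets of ATF4, the transcription factor of the amino acid response.

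The knockdown libraries held 18500447 and 16548342 expected counts and the control libraries 17283536 and 15983390. ZBTB16 itself had 1.37 and 1.34 FPKM (fragments per transcript length and per library total) in the knockdown libraries, against 1.77 and 1.76 FPKM in the control libraries, a log2 fold change of -0.36 (SE 0.109, adjusted p = 0.00338, edgeR), and this call was lost with DESeq2 and with limma. The libraries also differed in mean fragment length, which was 266.4 and 267.3 bases in the knockdown libraries and 325.7 and 326.7 bases in the control libraries. The 9 markers of undifferentiated spermatogonia tested include ZBTB16 itself, the target. Of the 9, 2 rose and 3 fell (ZBTB16, UCHL1 and PIWIL4), beside 22.7% of all genes tested higher and 23.8% lower. Their FPKM summed to 130.1 and 129.5 in the knockdown and 162.7 and 160.2 in the control libraries, most of it UCHL1. NANOS2 was at 0 or under 0.3 FPKM in every library. With length and GC trends removed, 3 of the 9 were higher (SALL4, DAZL and ID4) and 2 lower (ZBTB16 and PIWIL4). Markers of other testis cells were abundant: 5 of 8 Sertoli markers rose and 2 fell (summed FPKM 943.4 and 969.0 in the knockdown, 780.6 and 768.5 in the control libraries), and 4 of 5 peritubular myoid markers rose and 1 fell (5230 and 5127 in the knockdown, 5389 and 5304 in the control libraries). Of 6 Leydig markers tested 2 fell and none rose (181.2 and 192.0 in the knockdown, 222.1 and 220.2 in the control libraries, with CYP17A1 and STAR under 0.4 FPKM throughout), and of 6 macrophage markers 1 rose and 3 fell (23.9 and 26.4, against 34.3 and 38.2). These levels go against a culture of spermatogonia alone. In bulk RNA fewer cells of a type and less RNA per cell cannot be told apart, and the part of fragment length and of cell makeup in the changes below was not tested.

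In the knockdown, 9 of the 39 transcripts rose, 16 fell and 14 did not pass an adjusted p of 0.05 (edgeR quasi-likelihood test with Benjamini-Hochberg adjustment over all 15763 genes tested). Over all genes tested 46.4% passed in either direction, 22.7% higher and 23.8% lower, against 64.1%, 23.1% and 41.0% of the synthetase and scaffold genes. The changes were small. None of the 39 reached a 2-fold change, and the median size of the called changes was 1.127-fold, against 1.245-fold among all 7319 called genes. The median log2 change of the 39 was -0.08, beside -0.00 over all genes tested. Normalised counts (CPM) of the 2 knockdown libraries lay above both control libraries for 12 of the 39 (30.8%, beside 35.2% of all genes tested), below both for 18 (46.2%, beside 35.4%), and overlapped for 9.

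Leaving out 1 library at a time leaves 1 library in a group. Fewer members were then called in either direction, and fewer of all genes tested were called too. The calls that held under all 15 alternative treatments of the data were 5 of the 16 falls (AARS, MARS, AARS2, CARS2 and TARS2) and 0 of the 9 rises. The 15 include 3 limma fits on FPKM, in which fewer of all genes were called higher than lower. KARS and FARSB lost their calls only there, so 5 against 0 is not a like comparison of falls and rises. How many calls of all genes held under all 15 was not counted. The closest among the rises was FARSB, which lost its call only with limma on log2(FPKM + 1) without a filter (adjusted p = 0.0598). DESeq2 did not call 12 of the 25: AIMP2, EEF1E1, DARS, HARS, IARS, LARS, NARS, VARS, YARS, LARS2, VARS2 and YARS2. In all 3 fits of limma on log2 FPKM the calls of IARS, KARS, LARS, NARS, VARS, LARS2, WARS2 and YARS2 were lost, and in the limma fit without a filter also those of CARS, DARS and VARS2. On log2(FPKM + 1) limma called 2 members higher and 15 lower, beside 15.6% of all genes higher and 29.7% lower. With 2 libraries in each group an exact permutation test of a single gene cannot give a p below 0.333, so every call rests on a spread pooled over genes, and the p-values reflect how much these 4 libraries vary, which may be technical.

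**Figure D1:**
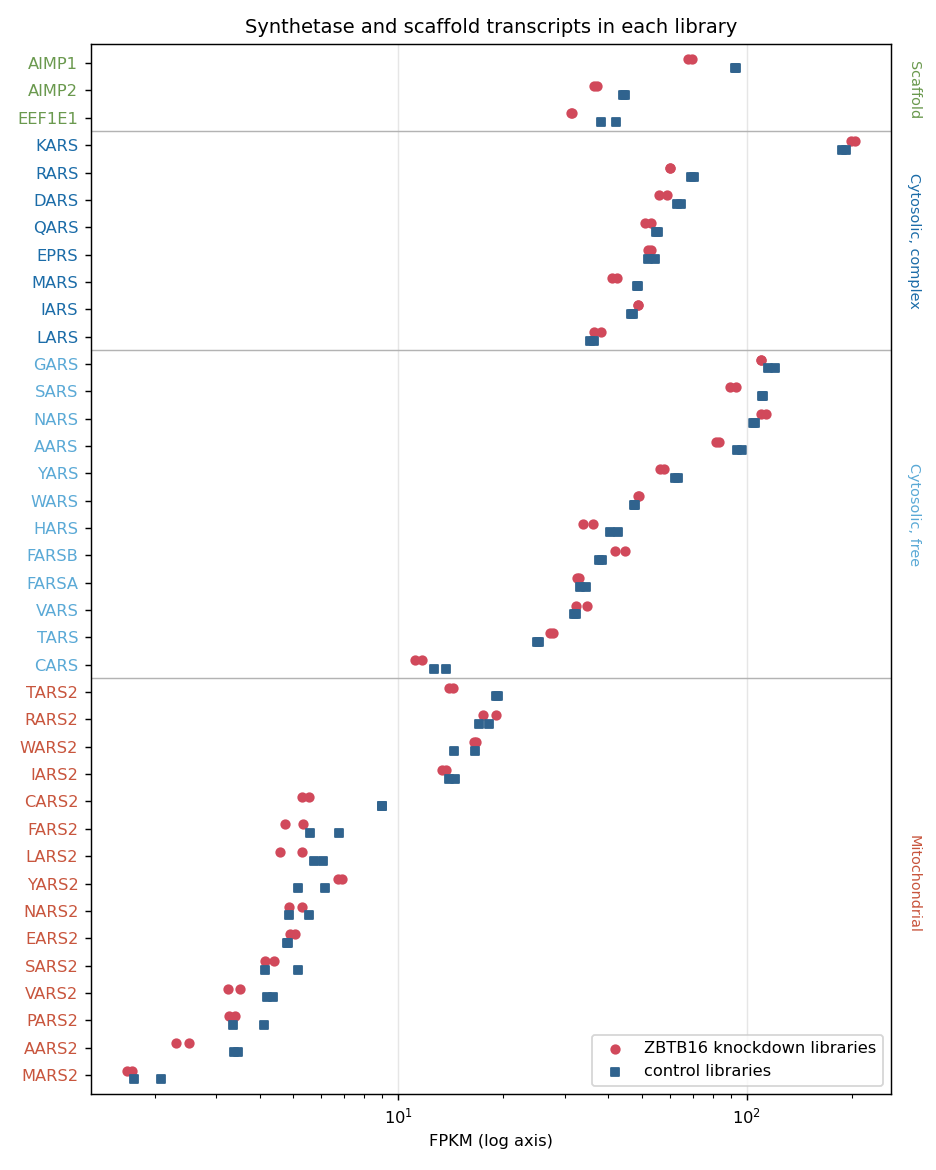
FPKM of 38 of the 39 transcripts in each library on a log axis, grouped by role, with the 2 ZBTB16 knockdown libraries as circles above the 2 control libraries as squares. Cytosolic enzymes lie between 11.45 and 201.3 FPKM by their knockdown mean (13.19 and 189.9 in the control) and mitochondrial enzymes between 1.695 and 18.3 (1.915 and 19.2 in the control).

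The 2 compartments differed in level far more than either differed between the groups. Cytosolic synthetases had a median of 50.5 FPKM in the knockdown and 50.9 FPKM in the control. Mitochondrial synthetases had a median of 5.01 FPKM in the knockdown and 5.43 FPKM in the control. KARS, the lysine enzyme, was the most abundant of the 39 in both groups and MARS2, the mitochondrial methionine enzyme, the least abundant. As a share of all transcripts in a library the cytosolic enzymes summed to 1959 and 1941 TPM in the knockdown libraries, against 1740 and 1733 TPM in the control libraries. The mitochondrial enzymes summed to 178 and 175 TPM in the knockdown, against 167 and 166 TPM in the control. The scaffold proteins summed to 218 and 214 TPM in the knockdown, against 238 and 241 TPM in the control. By contrast the 39 genes took a slightly smaller share of the counts in the knockdown, at 0.371% and 0.368%, against 0.379% in both control libraries. The direction of the pooled level thus differed between these scales.

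The scale set the direction of many small changes. FPKM summed over all genes to 634962 and 632881 in the knockdown libraries, against 739808 and 742383 in the control libraries, whereas TPM has the same total in each. Over the 15711 tested genes above 0 in every library the median log2 change was -0.06 in FPKM and 0.17 in TPM, so a transcript can be lower in FPKM and higher in TPM. In TPM the knockdown libraries lay above both control libraries for 21 of the 39 (53.8%, beside 54% of the 15711), below both for 8 (20.5%, beside 20.3%) and overlapped for 10, so both shares were near those of all genes. All 9 transcripts that rose by counts were above in TPM too. Of the 16 that fell by counts, 8 were below in TPM: the 3 scaffold proteins, SARS, AARS2, CARS2, TARS2 and VARS2. A further 6 overlapped (AARS, CARS, HARS, LARS2, MARS and RARS), and DARS and YARS were above. Set against the shift of 0.17 of all genes, the median TPM change of the 39 was 0.11. Falls are given below by counts, where the median of all genes was at -0.00.

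All 3 scaffold proteins fell in the knockdown by counts. AIMP1, which binds the arginine enzyme in the complex and is also known as the precursor of a secreted cytokine, had 69.4 and 67.7 FPKM in the knockdown libraries, against 93.0 and 92.3 FPKM in the control libraries. Its log2 fold change by counts was -0.20 (SE 0.0439, adjusted p = 5.97e-05). AIMP2, the central scaffold on which the subcomplexes meet, had 37.2 and 36.4 FPKM in the knockdown, against 44.6 and 44.1 FPKM in the control (log2 -0.16, SE 0.0609, adjusted p = 0.0249). EEF1E1, which tethers the methionine enzyme and is related to the elongation factor 1 subunits, had 31.6 and 31.2 FPKM in the knockdown, against 38.1 and 42.2 FPKM in the control (log2 -0.22, SE 0.0696, adjusted p = 0.00601). For all 3 the knockdown libraries lay below both control libraries. These are the shortest transcripts of the 39, at 1094 to 1281 bases. With the trend of transcript length removed from each library none of the 3 passed, their log2 changes being -0.02 for AIMP1 (adjusted p = 0.726), 0.02 for AIMP2 (adjusted p = 0.82) and -0.02 for EEF1E1 (adjusted p = 0.87). AIMP2 also lost its call whichever library was left out (adjusted p = 0.116 without control replicate 1, 0.0654 without the other control, 0.0564 without knockdown replicate 1 and 0.125 without the other knockdown library), and EEF1E1 lost it without control replicate 2 (adjusted p = 0.166). AIMP2 shares 77.6% of its exon bases with EIF2AK1 on the opposite strand, whose log2 change was 0.11 (adjusted p = 0.0442, lost whichever library was left out), and the sources used here do not say whether reads were counted by strand.

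The 8 genes of the synthetases held in the complex split evenly: 3 rose, 3 fell and 2 did not pass. That is 37.5% in each direction, beside 22.7% of all genes tested higher and 23.8% lower. KARS (chromosome 6, 12057475 to 12073749, Sscrofa 11.1), whose transcript serves both compartments in human cells, had 204 and 199 FPKM in the knockdown, against 188 and 192 FPKM in the control (log2 0.15, SE 0.0243, adjusted p = 5.75e-08). Its rise was larger with length and GC trends removed (log2 0.24), and it lost its call only in the 3 fits of limma on log2 FPKM (adjusted p = 0.058, 0.0581 and 0.103). IARS, the isoleucine enzyme, had 48.8 and 48.7 FPKM in the knockdown, against 46.5 and 47.2 FPKM in the control (log2 0.09, SE 0.0288, adjusted p = 0.00466). LARS, the leucine enzyme and a leucine sensor for mTORC1 in mammalian cells, had 36.5 and 38.3 FPKM in the knockdown, against 35.6 and 36.5 FPKM in the control (log2 0.09, SE 0.0353, adjusted p = 0.0252). Both knockdown libraries lay above both control libraries for IARS and for LARS, though for LARS the gap between the nearest libraries of the groups was smaller than that between the knockdown libraries. IARS lost its call without control replicate 1 (adjusted p = 0.0929), LARS without control replicate 1 (adjusted p = 0.255) or knockdown replicate 2 (adjusted p = 0.256), and neither passed with the length trend removed (log2 0.01 for IARS and 0.05 for LARS).

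MARS, the methionine enzyme (chromosome 5, 22752405 to 22785509), had 41.2 and 42.4 FPKM in the knockdown, against 48.3 and 48.8 FPKM in the control. Its log2 fold change was -0.17 (SE 0.0353, adjusted p = 1.32e-05), and the fall held under all 15 alternatives, at -0.19 with the length trend removed. In TPM it had 64.8 and 66.9 in the knockdown, against 65.3 and 65.7 in the control, and overlapped. MARS shares 2.12% of its exon bases with DDIT3, a stress-response transcription factor on the opposite strand, whose log2 change was -0.38 by counts (adjusted p = 9.04e-06) and -0.09 with the trend of length removed (adjusted p = 0.355). RARS, the arginine enzyme, had 60.2 and 60.1 FPKM in the knockdown, against 69.0 and 70.7 FPKM in the control (log2 -0.15, SE 0.037, adjusted p = 2.93e-04), and did not pass once the length trend was taken out (log2 -0.05, adjusted p = 0.294). RARS did pass with length and GC trends removed together (log2 -0.11, adjusted p = 0.00528). DARS, the aspartate enzyme, had 56.1 and 59.0 FPKM in the knockdown, against 63.1 and 64.8 FPKM in the control (log2 -0.09, SE 0.0372, adjusted p = 0.0383). The DARS call was lost without control replicate 1 (adjusted p = 0.0546), control replicate 2 (adjusted p = 0.257) or knockdown replicate 1 (adjusted p = 0.346). Of the 2 that did not pass, EPRS, the fused glutamate and proline enzyme, had 53.1 and 52.0 FPKM in the knockdown, against 54.5 and 52.1 FPKM in the control, and the groups overlapped. QARS, the glutamine enzyme, had 53.3 and 50.9 FPKM in the knockdown, against 55.7 and 55.0 FPKM in the control.

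The promoters of RARS and LARS are shown because 2 members of the same complex, called in opposite directions, carry the same core in the 250 bases before their annotated starts. The windows were read from Sscrofa 11.1 on the minus strand, at chr16:55412077-55412326 for RARS and chr2:147554198-147554447 for LARS. Both run 5′ to 3′ toward the gene, and capitals mark CCGGAAG, the core bound by ETS family factors, here read as its reverse complement.
RARS: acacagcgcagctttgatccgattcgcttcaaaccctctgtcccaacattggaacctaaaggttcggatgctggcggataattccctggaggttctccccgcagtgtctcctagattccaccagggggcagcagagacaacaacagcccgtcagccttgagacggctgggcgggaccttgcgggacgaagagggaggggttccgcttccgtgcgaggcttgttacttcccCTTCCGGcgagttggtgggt
LARS: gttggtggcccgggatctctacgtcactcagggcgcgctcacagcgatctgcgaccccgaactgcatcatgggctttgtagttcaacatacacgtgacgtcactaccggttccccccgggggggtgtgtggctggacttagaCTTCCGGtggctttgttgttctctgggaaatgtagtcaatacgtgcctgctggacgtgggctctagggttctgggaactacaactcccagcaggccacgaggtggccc
The first base of the match lies 20 bases before the start of RARS and 108 bases before that of LARS. Searched on both strands, CCGGAAG was in the windows of 7 of the 39 genes (17.9%), beside 9.93% of 14267 genes. The 7 were AIMP2, GARS, HARS, LARS, RARS, TARS2 and WARS, of which 4 fell, 1 rose and 2 did not pass. CGCANGCG, the core of the NRF1 site, was in 5 windows (12.8%), beside 11.2% of the same genes. Those 5 were KARS, TARS and WARS2, which rose, and VARS2 and YARS, which fell. A match is only a match of letters.

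Among the 12 cytosolic synthetase genes outside the complex 4 rose, 5 fell and 3 did not pass. That is 33.3% higher and 41.7% lower, beside 22.7% and 23.8% of all genes tested. FARSB, the beta subunit of the phenylalanine enzyme, had 41.9 and 44.8 FPKM in the knockdown, against 37.7 and 38.3 FPKM in the control (log2 0.26, SE 0.0468, adjusted p = 9.90e-07). Its partner subunit FARSA had 33.1 and 32.6 FPKM in the knockdown, against 34.6 and 33.3 FPKM in the control, and did not pass (log2 0.01, SE 0.0462, adjusted p = 0.881). With length and GC trends removed FARSA passed too (log2 0.13, adjusted p = 0.0132), beside 0.32 for FARSB. The 2 subunits form 1 enzyme, and the difference between their changes was not tested. A locus annotated as FARSB-like on chromosome 6, LOC110261142, had 0.75 and 0.79 FPKM in the knockdown and 0.58 and 0.68 FPKM in the control, so reads of the 2 could have been split and FARSB is uncertain to that extent.

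TARS, the threonine enzyme, had 27.3 and 27.7 FPKM in the knockdown, against 25.0 and 25.3 FPKM in the control (log2 0.16, SE 0.0329, adjusted p = 1.70e-05). Its transcript is 6231 bases long, and its change was 0.03 with the length trend removed (adjusted p = 0.575) and -0.00 with length and GC removed (adjusted p = 0.968). TARS shares 17.9% of its exon bases with LOC100738904 on the opposite strand. NARS, the asparagine enzyme, had 113 and 109 FPKM in the knockdown, against 104 and 106 FPKM in the control (log2 0.09, SE 0.0259, adjusted p = 0.00237). VARS, the valine enzyme, had 34.7 and 32.4 FPKM in the knockdown, against 32.0 and 32.3 FPKM in the control (log2 0.10, SE 0.0364, adjusted p = 0.0144). The knockdown libraries lay above both control libraries for all 3, but for VARS the lower knockdown library was close to the controls. NARS lost its call without control replicate 1 (adjusted p = 0.0979) or knockdown replicate 1 (adjusted p = 0.0954) and with length and GC trends removed (adjusted p = 0.166), and VARS without control replicate 1 (adjusted p = 0.121), control replicate 2 (adjusted p = 0.0529) or knockdown replicate 1 (adjusted p = 0.406).

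AARS, the alanine enzyme (chromosome 6, 13298336 to 13321423), had 83.2 and 81.6 FPKM in the knockdown, against 96.9 and 93.6 FPKM in the control. Its log2 fold change was -0.17 (SE 0.0265, adjusted p = 2.42e-08), and the fall held under all 15 alternatives with adjusted p between 2.71e-11 and 0.0192. In TPM it had 131 and 129 in the knockdown, against 131 and 126 in the control, and overlapped. Its promoter is shown because it alone of the 39 holds TGATGNAA, the composite element that ATF4 binds with a C/EBP partner. The window lies at chr6:13321424-13321673 (Sscrofa 11.1, minus strand), runs 5′ to 3′ toward AARS, and has the element in capitals as its reverse complement, 99 bases before the start.
AARS: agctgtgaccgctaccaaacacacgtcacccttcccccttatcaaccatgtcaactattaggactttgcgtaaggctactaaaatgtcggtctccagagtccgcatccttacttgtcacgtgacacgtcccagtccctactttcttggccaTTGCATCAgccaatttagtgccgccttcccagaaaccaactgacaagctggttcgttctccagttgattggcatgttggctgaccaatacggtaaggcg
The element was in 1.89% of the windows of 14267 genes, and 1 of 39 (2.56%) is near that share.

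SARS, the serine enzyme, had 93.3 and 89.4 FPKM in the knockdown, against 111 FPKM in both control libraries (log2 -0.21, SE 0.0322, adjusted p = 8.24e-09). It lost its call only with the trends of length and GC removed (log2 -0.06, adjusted p = 0.114). CARS, the cysteine enzyme, had 11.2 and 11.7 FPKM in the knockdown, against 13.7 and 12.7 FPKM in the control (log2 -0.21, SE 0.0458, adjusted p = 5.06e-05). CARS is long for the group, at 6226 bases, and its fall was larger with the length trend removed (log2 -0.34). YARS, the tyrosine enzyme, had 57.8 and 56.3 FPKM in the knockdown, against 63.6 and 62.3 FPKM in the control (log2 -0.11, SE 0.0358, adjusted p = 0.0086), and lost its call without control replicate 1 (adjusted p = 0.108) or knockdown replicate 2 (adjusted p = 0.0879), and once length was corrected for (log2 -0.06, adjusted p = 0.157). GARS, the glycine enzyme that serves both compartments in human cells, had 109.8 and 109 FPKM in the knockdown, against 121 and 115 FPKM in the control, and did not pass (log2 -0.04, adjusted p = 0.187). WARS, the tryptophan enzyme, had 49.0 and 48.9 FPKM in the knockdown, against 47.4 and 47.7 FPKM in the control, and did not pass either (log2 0.06, adjusted p = 0.163). WARS passed as higher with the effective length as an offset (log2 0.09, adjusted p = 0.0428) and with length and GC removed (log2 0.12, adjusted p = 0.00283).

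HARS, the histidine enzyme (chromosome 2, 142387563 to 142401232), had 36.2 and 33.8 FPKM in the knockdown, against 40.5 and 42.6 FPKM in the control (log2 -0.17, SE 0.0485, adjusted p = 0.00155). It lies head to head with LOC100521256, annotated as a probable mitochondrial histidine enzyme (142401279 to 142410253) and left out of the 39 only by its symbol. LOC100521256 had 8.46 and 9.41 FPKM in the knockdown, against 12.3 and 11.3 FPKM in the control (log2 -0.27, SE 0.0739, adjusted p = 9.91e-04). For both neighbours the knockdown libraries lay below both control libraries. HARS lost its call without control replicate 2 (adjusted p = 0.0603) or knockdown replicate 2 (adjusted p = 0.0829), and its log2 change was -0.04 with the length trend removed and 0.00 with length and GC removed, while that of LOC100521256 was -0.27 and -0.28. LOC100521256 lost its call with DESeq2 (adjusted p = 0.0821), with limma without a filter (adjusted p = 0.0519) and without knockdown replicate 1 (adjusted p = 0.0954). The 46 bases between the annotated starts are shown because they lie upstream of both genes. They lie at chr2:142401233-142401278 (Sscrofa 11.1) and are printed on the plus strand, reading from HARS to its neighbour, with the ETS core in capitals as its reverse complement.
HARS to LOC100521256: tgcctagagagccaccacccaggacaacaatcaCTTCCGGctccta

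**Figure D2:**
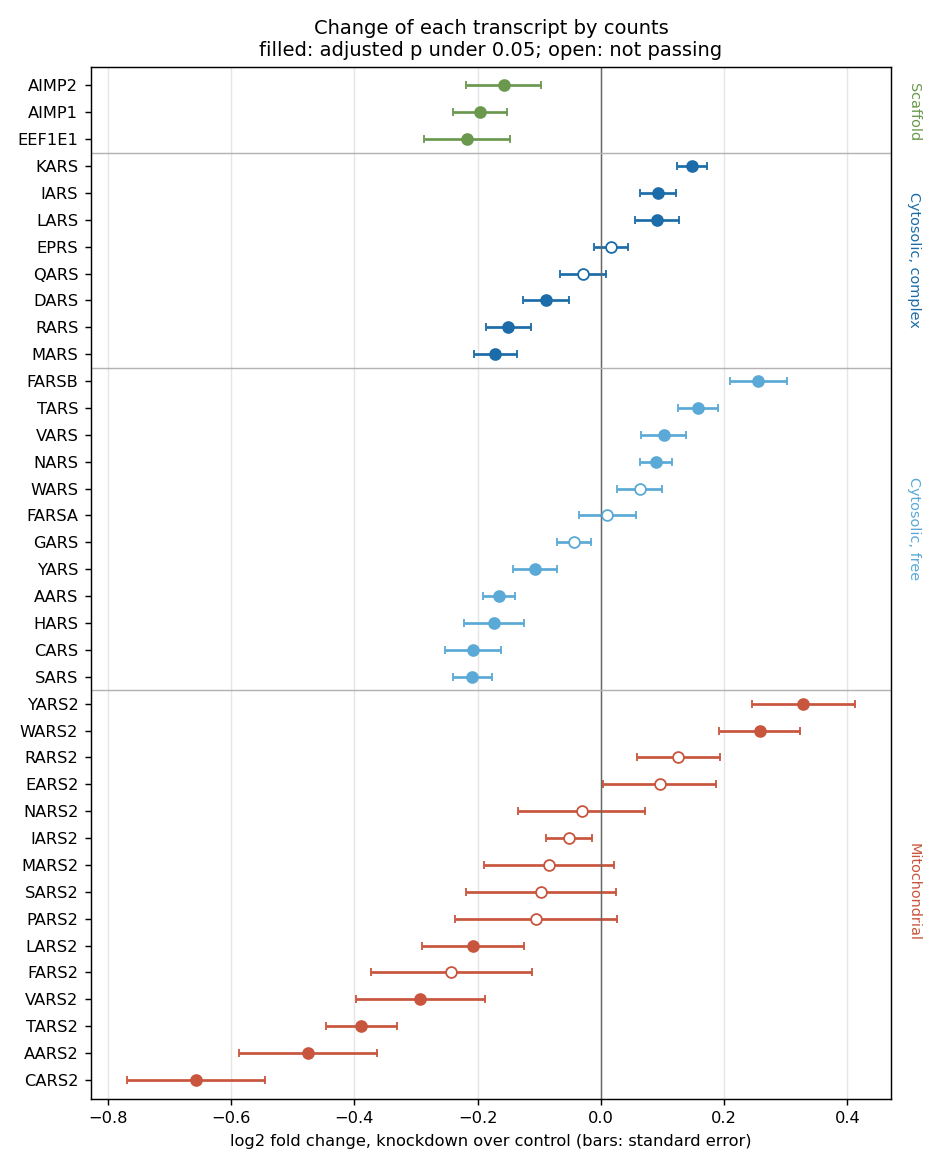
Log2 fold change of 38 of the 39 transcripts by counts, knockdown over control, with its standard error, grouped by role. Filled points passed an adjusted p of 0.05: all 3 scaffold proteins lie below 0, the cytosolic enzymes lie on both sides between -0.21 and 0.26, and the mitochondrial enzymes spread from -0.66 to 0.33.

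Among the 16 mitochondrial synthetases 2 rose, 5 fell and 9 did not pass. The share called was 43.75% (12.5% higher and 31.25% lower), near the 46.4% of all genes tested (22.7% and 23.8%). With the length trend removed it was 56.25% (18.75% and 37.5%), beside 40.9% of all genes (19.3% and 21.6%). With length and GC trends removed it was 62.5% (18.75% and 43.75%), beside 40.2% (20.2% and 20%). The mitochondrial synthetases held the largest changes of the 39 in both directions. Their median was -0.09, and it depended on single libraries, at -0.18 without control replicate 1 and 0.01 without control replicate 2. These are low transcripts, with 124 to 2109 counts in a library for those described here, and the standard errors of those described ran from 0.0371 (IARS2) to 0.131, with a median of 0.103, against 0.0243 to 0.0485 and a median of 0.0356 for the cytosolic enzymes. CARS2, the mitochondrial cysteine enzyme (chromosome 11, 77231865 to 77269936), had the largest change, with 5.28 and 5.53 FPKM in the knockdown, against 8.99 and 8.97 FPKM in the control. That is 153 and 144 counts in the knockdown, against 233 and 217 in the control, a fold of 0.635 (log2 -0.66, SE 0.112, adjusted p = 1.69e-07). With length and GC trends removed its log2 change was -0.44 (adjusted p = 5.92e-04). In TPM it had 8.31 and 8.74 in the knockdown, against 12.2 and 12.1 in the control. The CARS2 enzyme is known also to form cysteine persulfides in mammalian cells.

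AARS2, the mitochondrial alanine enzyme (chromosome 7, 39301020 to 39314296), had 2.51 and 2.31 FPKM in the knockdown, against 3.47 and 3.37 FPKM in the control (log2 -0.48, SE 0.112, adjusted p = 1.45e-04). TARS2, the mitochondrial threonine enzyme (chromosome 4, 98622235 to 98635318), had 13.97 and 14.4 FPKM in the knockdown, against 19.4 and 19.1 FPKM in the control (log2 -0.39, SE 0.0578, adjusted p = 2.34e-09). The falls of CARS2, AARS2 and TARS2 held under all 15 alternatives, and for each gene the knockdown libraries lay below both control libraries. TARS2 shares 76.5% of its exon bases with ECM1, a matrix protein gene on the same strand, so the counting had to divide reads between them and TARS2 is uncertain. ECM1 had 94.4 and 99.2 FPKM in the knockdown, against 94.0 and 98.9 FPKM in the control (log2 0.08, adjusted p = 0.039), and did not pass with DESeq2 (adjusted p = 0.235). The TARS2 window is shown because it is the promoter of a fall that held under every alternative and that carries the ETS core (chr4:98635319-98635568, Sscrofa 11.1, minus strand, core in capitals as its reverse complement, 132 bases before the start).
TARS2: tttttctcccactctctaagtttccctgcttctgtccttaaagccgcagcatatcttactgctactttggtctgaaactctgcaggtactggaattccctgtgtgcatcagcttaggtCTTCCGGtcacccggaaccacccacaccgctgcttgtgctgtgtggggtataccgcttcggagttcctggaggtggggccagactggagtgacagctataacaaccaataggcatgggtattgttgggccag

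VARS2, the mitochondrial valine enzyme, had 3.52 and 3.25 FPKM in the knockdown, against 4.36 and 4.19 FPKM in the control (log2 -0.29, SE 0.105, adjusted p = 0.0146). LARS2, the mitochondrial leucine enzyme, had 5.31 and 4.57 FPKM in the knockdown, against 5.73 and 6.07 FPKM in the control (log2 -0.21, SE 0.0822, adjusted p = 0.0292). Leaving out 1 library leaves 1 library in a group. VARS2 then lost its call without control replicate 1 or knockdown replicate 2, though its log2 change stayed between -0.33 and -0.26. LARS2 lost its call without control replicate 2 or knockdown replicate 2, and its log2 change ran from -0.33 to -0.11. The 2 rises were those of YARS2 and WARS2. YARS2, the mitochondrial tyrosine enzyme, had 6.90 and 6.73 FPKM in the knockdown, against 5.14 and 6.18 FPKM in the control (log2 0.33, SE 0.0833, adjusted p = 4.27e-04). It lost its call without control replicate 1 (log2 0.19, adjusted p = 0.128) and with DESeq2 (adjusted p = 0.057), and it shares 21.7% of its exon bases with DNM1L on the opposite strand. WARS2, the mitochondrial tryptophan enzyme, had 16.5 and 16.7 FPKM in the knockdown, against 16.6 and 14.4 FPKM in the control (log2 0.26, SE 0.0655, adjusted p = 4.39e-04). The groups of WARS2 overlapped in FPKM but not in counts, and its call was lost with the effective length as an offset (log2 0.15, adjusted p = 0.0958) and in the 3 limma fits (adjusted p = 0.327, 0.328 and 0.478). WARS2 shares 8.31% of its exon bases with HAO2 on the opposite strand.

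Of the mitochondrial enzymes that did not pass, 8 are described here, with log2 changes between -0.24 and 0.13. RARS2, the arginine enzyme, had 19.1 and 17.5 FPKM in the knockdown, against 18.3 and 17.0 FPKM in the control. IARS2, the isoleucine enzyme, had 13.3 and 13.8 FPKM in the knockdown, against 14.01 and 14.6 FPKM in the control, and shares 38.8% of its exon bases with RAB3GAP2 on the opposite strand. FARS2, the phenylalanine enzyme, had 4.73 and 5.34 FPKM in the knockdown, against 5.57 and 6.75 FPKM in the control. Of these 3 only RARS2 overlapped between the groups in FPKM. NARS2 (asparagine), EARS2 (glutamate), SARS2 (serine), PARS2 (proline) and MARS2 (methionine) had knockdown means between 1.70 and 5.09 FPKM and control means between 1.92 and 5.20 FPKM. With the length trend removed RARS2 passed at log2 0.25 (adjusted p = 0.00114) and IARS2 at -0.22 (adjusted p = 7.42e-08). With length and GC trends removed RARS2 was at 0.19 (adjusted p = 0.0186), IARS2 at -0.21 (adjusted p = 9.85e-08) and MARS2 at -0.29 (adjusted p = 0.0164). The others described here passed in neither of these fits. At this depth a change of the size of the cytosolic ones was not detectable in those with the fewest counts: the standard error of PARS2, with 124 to 147 counts in a library, was 0.131 on the log2 scale.

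Setting the cytosolic and mitochondrial forms for the same amino acid side by side gave 16 pairs described here, in which EPRS and FARS2 each enter 2. Both forms fell for alanine (AARS and AARS2) and for cysteine (CARS and CARS2), and in no pair did both rise. The forms were called in opposite directions in 4 pairs. For leucine, threonine and valine the cytosolic form rose and the mitochondrial form fell, and for tyrosine YARS fell (log2 -0.11) while YARS2 rose (log2 0.33). The opposite pair with the largest changes on the mitochondrial side was threonine, at 0.16 for TARS and -0.39 for TARS2. In the control the cytosolic form had from 1.31 times (threonine) to 27.9 times (alanine) the FPKM of the mitochondrial form. Of the cytosolic synthetases 35% were called higher and 40% lower, and of the mitochondrial ones 12.5% and 31.25%. How many pairs of each kind these shares alone would give was not worked out. The difference between the 2 forms of a pair was not tested. In all 4 opposite pairs the call of the cytosolic form (TARS, LARS, VARS and YARS) was lost with the length trend removed. Of these only VARS passed with length and GC removed (log2 0.15, adjusted p = 1.38e-04).

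**Figure D3:**
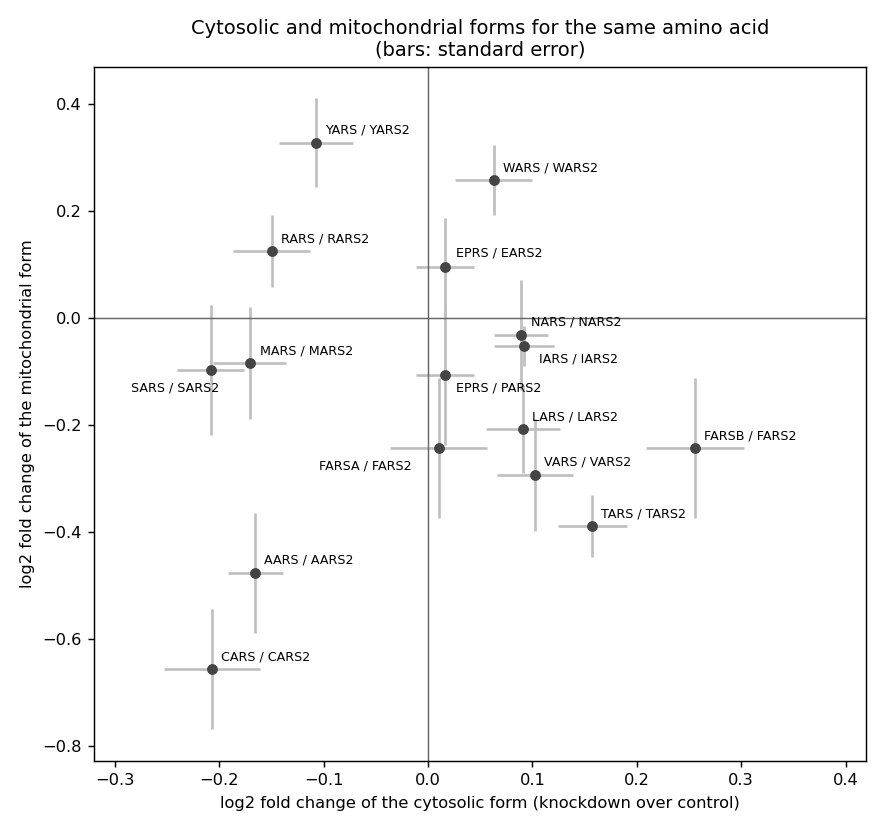
Log2 fold change, knockdown over control, of the mitochondrial form (vertical) against that of the cytosolic form (horizontal) for each amino acid, with standard errors. CARS and CARS2 lie lowest on the left at -0.21 and -0.66, TARS and TARS2 on the right at 0.16 and -0.39, and YARS and YARS2 at the top at -0.11 and 0.33.

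The members were also grouped by the catalytic fold, which divides the synthetases into class I, with a Rossmann fold, and class II, with an antiparallel sheet; EPRS holds both and was left out. Of 18 class I genes 5 rose and 7 fell (27.8% and 38.9%). Of 17 class II genes 4 rose and 6 fell (23.5% and 35.3%). Over all genes tested 22.7% were higher and 23.8% lower. The medians were -0.04 for class I and -0.09 for class II.

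Counts in these libraries changed with transcript length. Over all genes tested the median log2 change was -0.19 for transcripts of 1000 to 2000 bases, a range that holds 9 of the 39, and -0.04 for 2000 to 3000 bases, with 13. It was 0.03 for 3000 to 4000 bases, with 8, and 0.08 for 4000 to 6000 bases, with 5. With that trend removed 6 of the 39 were higher and 11 lower, beside 40.9% of all genes in either direction (19.3% higher and 21.6% lower). When GC content was treated in the same way as length, 8 were higher and 13 lower, beside 40.2% of all genes (20.2% higher and 20% lower). By compartment, removing both trends left 5 cytosolic genes higher and 6 lower, 3 mitochondrial genes higher and 7 lower, and none of the scaffold proteins. Of the 25 calls, 11 were lost with the length trend removed and 10 with both.

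**Figure D4:**
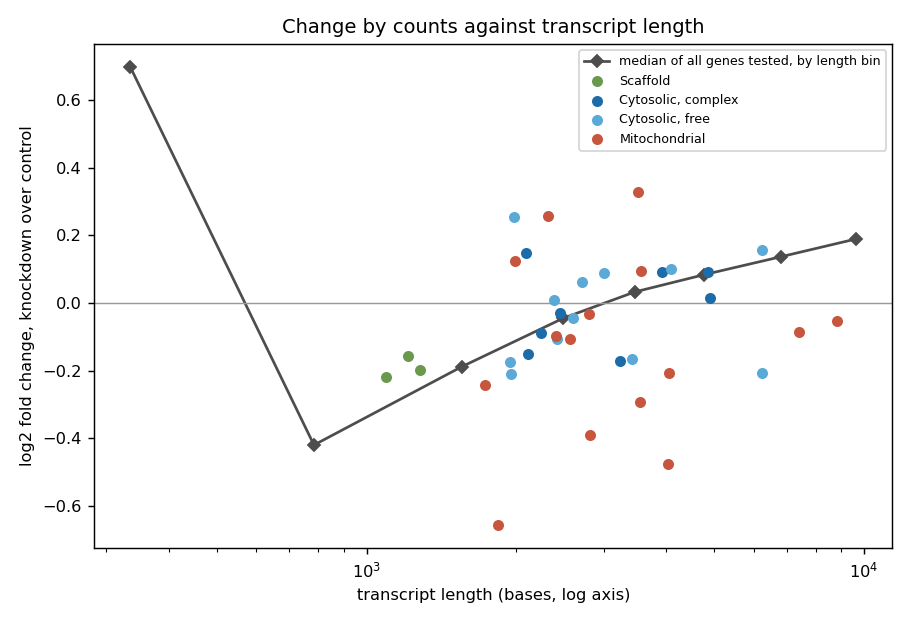
Log2 fold change by counts, knockdown over control, against transcript length for 38 of the 39 genes (circles), with the median of all genes tested in each length bin (diamonds and line). The scaffold proteins lie near the line at 1094 to 1281 bases, while CARS2 at -0.66 and 1834 bases, AARS2 at -0.48 and 4034 bases, and FARSB at 0.26 and 1980 bases lie away from it.

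**Figure D5:**
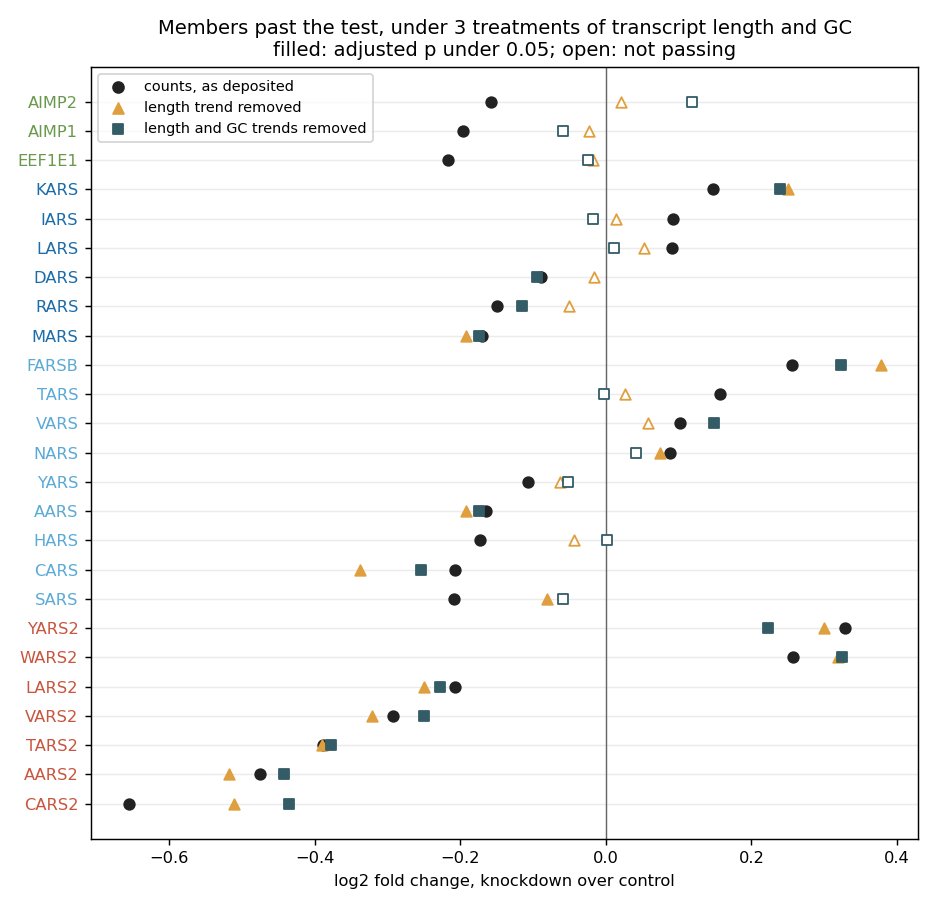
Log2 fold change, knockdown over control, of the 25 called members from the counts, with the length trend removed, and with length and GC trends removed; filled marks passed an adjusted p of 0.05. CARS2, AARS2, TARS2, VARS2, LARS2, AARS, CARS and MARS stay filled below 0 and KARS, FARSB, YARS2 and WARS2 above 0. The 3 scaffold proteins, at -0.16 to -0.22 by counts, lie between -0.06 and 0.12 with the trends removed and are open there.

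The genes that work beside the synthetases were counted in the same fit, where 22.7% of all genes tested were higher and 23.8% lower. With length and GC trends removed those shares were 20.2% and 20%. Of the 10 cytosolic elongation factors that take up charged transfer RNA and recycle, 2 rose and 8 fell, with a median of -0.18. EEF1G, a structural subunit of the exchange factor, had 529 and 524 FPKM in the knockdown, against 772 and 756 FPKM in the control (log2 -0.45, SE 0.0198, adjusted p = 6.19e-50). EEF1D and EEF1B2, which reload EEF1A1 with GTP, had log2 changes of -0.41 and -0.28 by counts. EEF1A1, which carries charged transfer RNA to the ribosome, had 6004 and 5910 FPKM in the knockdown, against 7047 and 6998 FPKM in the control (log2 -0.16). With length and GC trends removed 2 of the 10 were higher and 5 lower, with EEF1G at -0.24, EEF1D at -0.19, EEF1B2 at -0.05 (adjusted p = 0.0586) and EEF1A1 at -0.04. EEF1A1 did not pass with the length trend alone removed (log2 -0.01, adjusted p = 0.804). Of 14 mitochondrial translation factors 2 rose and 5 fell (median -0.13), and with length and GC removed 1 was higher and 4 lower (median 0.01). TSFM, which recharges the mitochondrial elongation factor, had 17.0 and 19.0 FPKM in the knockdown, against 32.0 and 32.8 FPKM in the control (log2 -0.74, adjusted p = 1.06e-16). TUFM, that elongation factor, had 52.3 and 55.5 FPKM in the knockdown, against 65.7 and 66.5 FPKM in the control (log2 -0.22). TSFM was at -0.55 with length and GC removed and TUFM at -0.02 (adjusted p = 0.717).

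Of 15 synthetase-like and editing factors 0 rose and 4 fell (edgeR, adjusted p under 0.05). The counts in this paragraph stand beside 22.7% of all genes tested higher and 23.8% lower. AARSD1, which removes serine wrongly placed on alanine transfer RNA, had 26.1 FPKM in both knockdown libraries, against 35.3 and 35.7 FPKM in the control (log2 -0.37, SE 0.0598, adjusted p = 4.51e-08), and was at -0.16 with length and GC removed. QRSL1, a subunit of the amidotransferase that makes glutaminyl transfer RNA in the mitochondrion, where no separate glutamine enzyme is kept, had 11.3 and 10.6 FPKM in the knockdown, against 13.3 and 13.8 FPKM in the control (log2 -0.22, adjusted p = 0.0166). QRSL1 lost its call with DESeq2 (adjusted p = 0.206), once length was corrected for (log2 -0.10, adjusted p = 0.354) or length and GC together (adjusted p = 0.0829), and without control replicate 2 (adjusted p = 0.0966) or knockdown replicate 2 (adjusted p = 0.0977). Of 68 genes for transfer RNA processing, modification and export 14 rose and 26 fell (median -0.09). URM1, a sulfur carrier for transfer RNA thiolation, had 22.9 and 22.8 FPKM in the knockdown, against 37.7 and 39.2 FPKM in the control (log2 -0.67, adjusted p = 2.60e-23). Of 25 genes of RNA polymerase III, which transcribes transfer RNA genes, and its factors 2 rose and 10 fell (median -0.05). POLR1D, a subunit shared by RNA polymerases I and III, had 61.9 and 61.3 FPKM in the knockdown, against 111 and 104 FPKM in the control (log2 -0.61), and BDP1, a subunit of TFIIIB, had 5.44 and 5.75 FPKM in the knockdown, against 4.21 and 4.28 FPKM in the control (log2 0.42). With length and GC removed POLR1D was at -0.19 and BDP1 at 0.20, and both still passed.

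Of 33 tested genes of the ATF4 pathway and amino acid response 6 rose and 15 fell, beside 22.7% and 23.8% of all genes tested. Their median was -0.12 by counts and -0.07 with length and GC trends removed. NUPR1, a small stress-induced chromatin protein, had 1309 and 1331 FPKM in the knockdown, against 3077 and 2980 FPKM in the control (log2 -1.003, SE 0.019, adjusted p = 7.32e-101), and was at -0.54 with length and GC removed. DDIT4, an inhibitor of mTORC1, fell by 0.69 and PPP1R15A, which directs the phosphatase that reverses eIF2 phosphorylation, fell by 0.36 (-0.23 with length and GC removed). CEBPB, a partner of ATF4, rose, with 129 and 126 FPKM in the knockdown, against 94.0 and 96.7 FPKM in the control (log2 0.55). Of 26 amino acid transporters 8 rose and 3 fell (median 0.05), but with the length trend removed 4 were higher and 5 lower (median 0.01), and with length and GC removed 7 and 4. SLC38A2, a carrier of small neutral amino acids, had 289 and 299 FPKM in the knockdown, against 256 and 259 FPKM in the control (log2 0.22, adjusted p = 1.56e-22), and was at 0.08 with length and GC removed. No relation between these lists and the synthetases was tested.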

How the data were processed

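RNA from 2 ZBTB16 knockdown and 2 control libraries was sequenced on an MGI instrument, and groups were taken from the genotype labels. Per the labels' protocols, the authors cleaned reads with SOAPnuke 2.1.0, aligned them with HISAT2 2.2.1 to Sscrofa 11.1, mapped them to transcripts with bowtie2 2.3.5 and quantified them with RSEM 1.3.3. RSEM divides reads that fit several transcripts, and the deposited expected counts were whole for 83.7% to 84.7% of the genes with any count. The authors also deposited FPKM and TPM, and the transcript and effective lengths behind them, per the file headers. Their own list used DESeq2 at an unadjusted p of 0.05, per the labels' protocols, and was not used here. The sources used here do not say whether reads were counted by strand.

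Expected counts were rounded and tested with edgeR 4.0.16 (R 4.3.3): TMM scaling, filterByExpr (minimum count 10, total 15), two-sided quasi-likelihood test, no block. Log2 changes are knockdown over control. The fit was also run on counts simulated at the common variation given next. Those counts held no trend of length or GC, so that run could not show an effect of such trends. The coefficient of variation common to all genes, which edgeR terms biological, was 0.0129, and depth was 15983390 to 18500447 counts. Replicate libraries differed by little more than the sampling of reads. Their chi-square per degree of freedom, near 1 under sampling alone, was 1.26 for the knockdown and 1.15 for the control libraries. Between libraries of different groups it was 25.1 to 27.1. Whether the replicate spread holds variation between cultures was not tested. The alternatives were DESeq2 1.42.0, RLE and upper-quartile scaling, no low-count filter, limma 3.58.1 on log2(FPKM + 1) with and without a filter (FPKM of at least 1 in 2 libraries) and on log2(FPKM + 0.1), an effective length offset, a length trend removed per library (mgcv 1.9.3), a replicate block, leaving out 1 library at a time, and, added after the data were seen, length and GC trends removed together. TPM was compared as a description, also added after the data were seen. Counts and medians cover all 39 genes; 1 of them is not reported here by itself. The other 38 are named, and from each other list the 4 genes with the smallest p could be named. Genes that overlap, neighbour or resemble a member and cell type markers near 0 are named beside these. Promoter windows are the 250 bases before the RefSeq start (Sscrofa 11.1). The genes and lists were chosen with earlier results of these data known.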

Additional observations from a re-analysis of the deposited data

How the results depend on the processing

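Of 570 values of 38 members under the 15 alternatives, 452 kept direction and call, 84 lost the call, 8 gained one and 26 changed sign. RLE and upper-quartile scaling and the replicate block changed none of the 38. The labels share replicate numbers 1 and 2 between the groups, but same-numbered libraries did not deviate together (r = 0.00036), and the block gave 9 higher and 16 lower members and 7480 genes in all. DESeq2 called 4452 genes in all, 4 members higher and 9 lower, and limma without a filter 4438 genes in all, beside 7319. Members called higher numbered 2, 2 and 1 under limma on log2(FPKM + 1), on log2(FPKM + 0.1) and without a filter, and members called lower 15, 15 and 12. With a library left out fewer members were higher, and fewer of all genes tested were higher too. The cytosolic median, -0.01, was -0.0662 under limma on log2(FPKM + 1) with or without a filter and -0.0675 on log2(FPKM + 0.1), and the mitochondrial median ran from -0.18 to 0.009 with a library left out. ZBTB16 did not pass with DESeq2 (-0.36), limma on log2(FPKM + 1) with or without a filter (-0.23) or on log2(FPKM + 0.1) (-0.36).

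No value that changed sign was beyond 0.119 in size, and the cause was not tested. With the length trend removed AIMP2 was at 0.0212, EPRS at -0.0652 (adjusted p = 0.0472) and QARS at 0.01. With length and GC trends removed AIMP2 was at 0.119, EPRS at -0.0734 (adjusted p = 0.0161), HARS at 0.0013, IARS at -0.0171, QARS at 0.0393, SARS2 at 0.0351 and TARS at -0.0022. Under limma on log2(FPKM + 1), with or without a filter, EPRS was at -0.0194 and FARSA at -0.0462, and on log2(FPKM + 0.1) at -0.0197 and -0.0474. With the effective length offset NARS2 was at 0.0244. With a library left out EPRS ran from -0.0145 to 0.046, FARSA from -0.0158 to 0.0352, MARS2 from -0.249 to 0.0846, NARS2 from -0.111 to 0.0445, PARS2 from -0.252 to 0.0415, QARS from -0.067 to 0.0042 and SARS2 from -0.233 to 0.0611. Depth limits the mitochondrial enzymes most, since several held only 124 to 236 counts in a library.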
